A study of Ailuropoda melanoleuca with 25 samples.

Results

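Ion channels and ion pumps set how ions and water cross the membranes of a cell, and they were examined here as 54 genes out of 25376 in a table of giant panda (Ailuropoda melanoleuca) transcripts. The genes were chosen by name from the tissue-specific differentially expressed genes (DEGs) that the study listed for heart, liver, spleen, lung, and kidney. Every listed gene was taken whose symbol begins with a prefix from a fixed set. The prefixes stand for families of potassium, sodium, calcium, chloride, and TRP channels, ryanodine receptors, ATP-driven pumps, aquaporins, and P2X receptors. Channels and pumps whose symbols begin otherwise were not searched for. The study's list holds 2814 genes, of which 1778 carry a name, so an unnamed channel could not be found. The list was drawn from the differences between tissues in these same libraries. Levels between tissues are therefore given as a description wherever a tissue that a gene was listed for is involved. The name pattern also takes in ATP10A, which belongs to the P-type ATPases but moves phospholipids rather than ions.

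Libraries were made from the messenger RNA of 5 captive giant pandas, 25 in all with each tissue of each animal once, and the replicate number of a library is the number of its panda. Panda 1 was a female of 27 years that died of ovarian cancer, and panda 2 was a female of 9 years whose cause of death reads "ileac pssion" in the labels. Pandas 3 and 4 were females and panda 5 was a male, all of 0.5 years and all dead of coronavirus infection. Whole tissue was taken after death and stored in liquid nitrogen, so fewer cells of a type and less RNA per cell cannot be told apart. Abundance is given as FPKM, the fragments on a gene divided by its length and by the total of the library, so levels of different genes can be set side by side. Means are given ± SD over 5 libraries. Recovered from the steps of the values, the depth of the libraries ranged from 13149580 to 21383380 fragments, at which 3 fragments on a gene of 1 kb gave between 0.140 and 0.228 FPKM.

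Potassium channels bring a cell back to its resting potential, while voltage-gated sodium and calcium channels start the action potential and let in the calcium that triggers contraction. Pumps of the P-type and vacuolar families spend ATP to rebuild the gradients that channels run down. In the heart these proteins shape the beat and the calcium cycle of each contraction, and along the kidney tubule they recover or secrete potassium, calcium, protons, and water, segment by segment.

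Marker genes were summed to describe the labelled tissues. A marker carried a name only if the study had listed it as a tissue-specific DEG from these same libraries. High sums in the matching tissue are therefore no independent check of the labels. The summed level of 9 cardiomyocyte genes was between 72556 and 87057 FPKM in the heart libraries and at most 97.0 elsewhere. For 6 B cell genes it was between 387 and 793 FPKM in the spleen and at most 93.7 elsewhere, and for 6 genes of the proximal tubule between 119 and 1556 FPKM in the kidney and at most 10.7 elsewhere. For liver and lung 6 of 8 marker genes each were named: the hepatocyte genes summed to between 22292 and 67593 FPKM in the liver and at most 4921 elsewhere, a value of the lung, and the lung epithelium genes to between 14698 and 49263 FPKM in the lung and at most 185 elsewhere. In the kidney the library of replicate 4 stood apart, with a sum of 119 FPKM for the proximal tubule genes where the others had 1556, 869, 772, and 1241 FPKM. For 4 genes of the intercalated cell, which secretes acid or base in the collecting duct, it had 20.3 FPKM against 398, 128, 326, and 288 FPKM. Liver 3 had a sum of 53817 FPKM for the 6 hepatocyte genes, within the range of the livers. Taken singly, these genes ran from 4.13% to 310% of the mean of the other livers, with a median of 12.5%. Some pandas also ranked together. Pandas 2 and 4 held both of the highest or both of the lowest libraries in between 40.1% and 53.8% of the genes that peaked in a tissue. Pandas 1 and 5 did so in between 25.8% and 50.2%, and in liver they exceeded pandas 2 and 4. For pandas 3 and 5 it was between 27.2% and 33.2%, and in kidney they exceeded pandas 1 and 5.

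Of the 54 genes, 16 had their highest mean in heart, 4 in liver, 10 in spleen, 6 in lung, and 18 in kidney. Their shares of 29.6% in heart and 33.3% in kidney stood beside 8.35% and 20.1% of the 18701 genes that exceeded a mean of 1 FPKM in any tissue. Among the 2760 other genes of the study's list the shares were 25.6% and 22.5%. A mean above 1 FPKM in a single tissue was found for 28 genes, or 51.9%, against 15.5% of all expressed genes and 48.4% of the other listed genes. Only KCNIP2, CACNB2, ATP2A2, and AQP1 exceeded 1 FPKM in all 5 tissues. The number of the 54 genes above 1 FPKM was 19 in heart, 12 in liver, 29 in spleen, 28 in lung, and 31 in kidney. For 37 genes every library of the highest tissue lay above all 20 libraries of the other tissues, and for 17 genes the tissues overlapped. Such a separation was found for 16.7% of all expressed genes, and the contrast is the one that chose the 54.

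**Figure D1:**
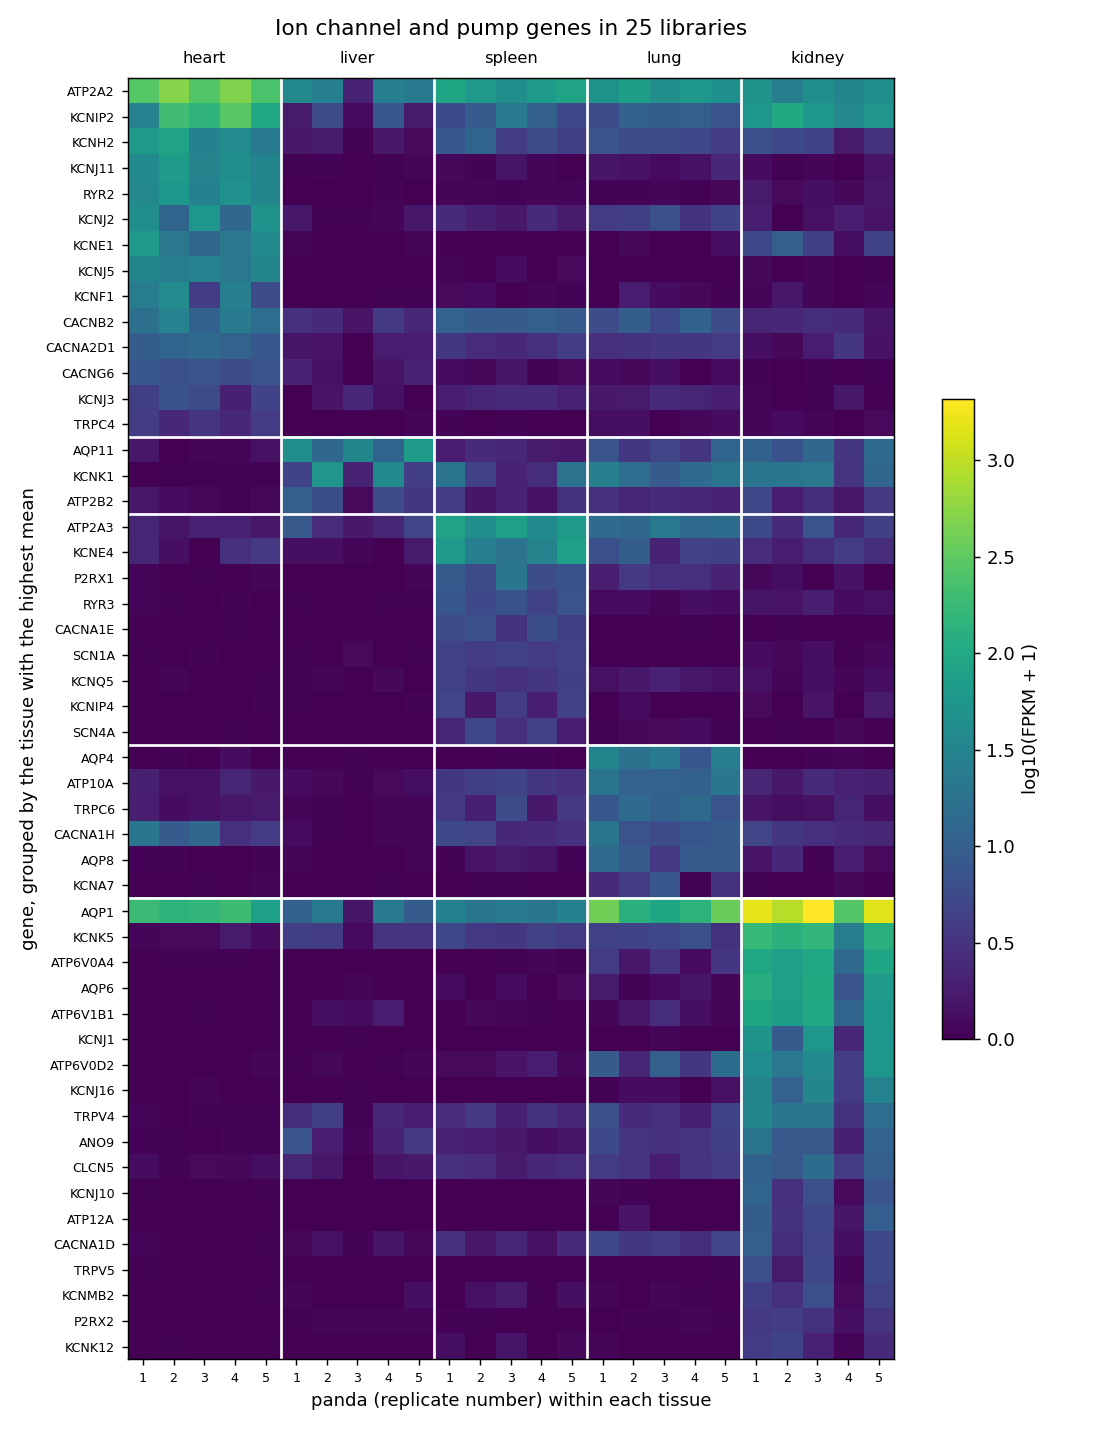
FPKM of 50 of the 54 genes (rows, grouped by the tissue with the highest mean and ordered by that mean) in 25 libraries (columns, 5 pandas within each tissue), coloured by log10(FPKM + 1). The blocks on the diagonal hold 14 heart, 3 liver, 9 spleen, 6 lung, and 18 kidney genes, and within the kidney block the column of replicate 4 is darker than its neighbours.

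The inward rectifier potassium channels, which hold the resting potential, split between heart and kidney, with 4 and 3 of 7 genes. KCNJ11 (ENSAMEG00000019510), the pore of the ATP-sensitive potassium channel, measured 37.2, 64.6, 29.3, 42.5, and 30.2 FPKM in hearts 1 to 5, a mean of 40.8 ± 14.4. In the 20 libraries of the other tissues it ran from 0 to 1.35 FPKM with a median of 0.140, so the groups did not overlap. KCNJ2, which carries the classical inward rectifier current of heart muscle, averaged 34.2 ± 21.3 FPKM in heart, where replicates 2 and 4 had 10.7 and 11.9 FPKM and the others 43.1, 55.3, and 49.8. KCNJ5 and KCNJ3 form the potassium channel that acetylcholine opens through G proteins in the atrium. They were at unequal levels in heart, 27.2 ± 4.67 FPKM for KCNJ5 and 3.70 ± 1.87 FPKM for KCNJ3. In spleen KCNJ3 reached 1.2 ± 0.295 FPKM, so that the tissues overlapped at the 0.951 FPKM of heart 4.

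KCNJ1 (ENSAMEG00000019148), the secretory potassium channel ROMK of the thick ascending limb and collecting duct, measured 51.1, 7.79, 56.2, 1.44, and 55.1 FPKM in kidneys 1 to 5. Elsewhere it was at 0 in most libraries and at most at 0.126 FPKM. Kidneys 2 and 4 were the low ones, and still lay above all libraries of the other tissues. KCNJ16 and KCNJ10, which pair in the basolateral membrane of the distal tubule, averaged 20.8 ± 13.3 and 4.98 ± 4.14 FPKM in kidney, both with their lowest values in kidneys 2 and 4. KCNJ10 had 0.217 FPKM in kidney 4, from 4 recovered reads.

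The voltage-gated potassium channels and their accessory subunits were the largest family, with 10 genes, 4 highest in heart, 4 in spleen, and 1 each in lung and kidney. KCNIP2 (ENSAMEG00000017648), a calcium-binding subunit of the channel behind the transient outward current, measured 28.9, 201, 144, 284, and 97.3 FPKM in hearts 1 to 5, a mean of 151 ± 97.4. It was also listed for kidney, where it measured 60.4 ± 24.8 FPKM and up to 102, above hearts 1 and 5. Liver held its lowest mean, at 2.70 ± 3.03 FPKM. KCNH2 (ENSAMEG00000013992), the rapid delayed rectifier channel also called hERG, had 64.4, 80.2, 28.1, 39.0, and 22.7 FPKM in the hearts. Its other libraries ran from 0.0328 to 10.9 FPKM (median 3.39), below all 5 hearts.

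KCNE1, the subunit that slows the other delayed rectifier, was listed for heart and kidney. It measured 61.8, 19.9, 12.1, 20.2, and 36.9 FPKM in hearts 1 to 5 and averaged 4.05 ± 3.09 FPKM in kidney. In liver, spleen, and lung its means were at most 0.104 FPKM. KCNF1, a subunit that alters its partner channels without conducting on its own, averaged 19.1 ± 15.0 FPKM in heart, with 2.98 FPKM in heart 3 and 4.87 FPKM in heart 5 against 24.1, 38.4, and 25.2 FPKM in the others.

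The spleen genes of this family were led by KCNE4. KCNE4, an inhibitory accessory subunit, measured 41.7 ± 24.8 FPKM in spleen, against 4.36 ± 2.81 FPKM in lung as the next tissue. KCNQ5, a subunit of the M-type potassium current of neurons, averaged 2.70 ± 0.637 FPKM in spleen, and KCNIP4, a relative of KCNIP2, averaged 2.37 ± 1.49 FPKM. KCNA7 averaged 2.66 ± 2.51 FPKM in lung. Lung 4 alone had 1 fragment, at 0.05 FPKM, which was below the highest kidney library at 0.18 FPKM. KCNMB2, a subunit of the large-conductance calcium-activated channel, averaged 2.83 ± 1.91 FPKM in kidney.

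The 2-pore channels carry the potassium leak of resting cells. KCNK5 (ENSAMEG00000013732), which is open at alkaline pH, measured 168, 134, 155, 24.6, and 127 FPKM in kidneys 1 to 5, and between 0.156 and 5.62 FPKM in the other libraries. Kidney 4 was low among the kidneys and above everything else. KCNK12, a silent member of the family, averaged 1.86 ± 1.49 FPKM in kidney. KCNK1 (ENSAMEG00000007248) was listed for heart, yet heart held its lowest level, 0.0453 ± 0.0318 FPKM. Its highest mean was in liver, where 52.7 and 38.0 FPKM in replicates 2 and 4 stood against 3.71, 1.09, and 3.13 FPKM in replicates 1, 3, and 5. In lung and kidney it averaged 16.2 ± 6.94 and 14.1 ± 7.50 FPKM, and the libraries of liver, lung, and kidney overlapped.

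Voltage-gated sodium channels start the action potential of nerve and muscle, and a pair of their pore subunits peaked in spleen. SCN1A, a pore subunit known from brain, was even across the spleens at 3.21 ± 0.297 FPKM. In spleens 1 to 5 it measured 3.41, 2.94, 3.36, 2.83, and 3.48 FPKM, and at most 0.364 FPKM elsewhere. SCN4A, the pore subunit of skeletal muscle, varied there from 0.838 to 4.39 FPKM.

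Among the voltage-gated calcium channel genes, heart held the accessory subunits. CACNB2 (ENSAMEG00000012933), which carries the pore to the membrane, measured 15.7, 28.6, 9.89, 22.6, and 14.8 FPKM in hearts 1 to 5. Spleen followed at 8.66 ± 0.993 FPKM and reached 10.1, above heart 3. CACNA2D1 (ENSAMEG00000016582), the extracellular subunit, measured 8.59, 10.7, 12.9, 10.5, and 7.28 FPKM in hearts 1 to 5 and at most 3.01 FPKM elsewhere. CACNG6 averaged 6.07 ± 0.955 FPKM in heart.

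The pore subunits of calcium channels were represented by 3 genes. CACNA1E, the pore of the R-type channel, averaged 4.24 ± 1.52 FPKM in spleen and was at most 0.0464 FPKM in any other tissue. CACNA1H, the pore of a T-type channel, was listed for liver, where its mean was lowest at 0.120 ± 0.111 FPKM. It measured 18.3, 6.06, 4.77, 6.67, and 8.27 FPKM in lungs 1 to 5 and averaged 8.76 ± 7.08 FPKM in heart, with the libraries of lung and heart overlapping. CACNA1D, an L-type pore, was listed for heart and was lowest there, at 0.0406 ± 0.0355 FPKM. Its kidney values were 8.74, 1.74, 3.88, 0.318, and 4.18 FPKM in replicates 1 to 5, and lung averaged 3.02 ± 1.03 FPKM, within the range of the kidneys.

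Ryanodine receptors release calcium from the internal store. RYR2 (ENSAMEG00000002582), the release channel of heart muscle, measured 35.9, 57.2, 27.5, 47.4, and 32.0 FPKM in hearts 1 to 5. It was listed for kidney too, at 0.435 ± 0.249 FPKM, which was above liver, spleen, and lung but under 1 FPKM and far under heart. RYR3 (ENSAMEG00000015734), the form with the widest tissue range, measured 7.03, 4.36, 5.85, 3.41, and 6.02 FPKM in spleens 1 to 5, and kidney followed at 0.523 ± 0.233 FPKM.

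The P-type ATPases divided by tissue. ATP2A2 (ENSAMEG00000014007), the calcium pump that refills the store of heart muscle and of most cells, was the most abundant gene among those highest in heart, with 277, 522, 265, 474, and 237 FPKM in hearts 1 to 5. It reached 67.8 ± 17.3 FPKM in spleen and 22.2 ± 13.0 in liver.

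ATP2A3 (ENSAMEG00000009412), the store calcium pump known from blood cells, measured 80.4, 42.9, 75.1, 36.7, and 62.3 FPKM in spleens 1 to 5. Lung came next at 14.6 ± 3.67 FPKM. ATP2B2, a pump that expels calcium through the plasma membrane, averaged 4.35 ± 3.32 FPKM in liver with 0.212 FPKM in liver 3, and kidney averaged 1.95 ± 1.41 FPKM, within the liver range. ATP12A, the proton-potassium pump outside the stomach, averaged 4.86 ± 3.75 FPKM in kidney and was listed at 0 in all libraries of liver and spleen. ATP10A averaged 13.4 ± 4.80 FPKM in lung and 2.78 ± 0.732 FPKM in spleen.

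All 3 subunits of the vacuolar proton pump were highest in kidney, and they are the forms that acid-secreting cells use. ATP6V0A4 (ENSAMEG00000017954) measured 97.5, 73.3, 97.8, 12.6, and 91.1 FPKM in kidneys 1 to 5. ATP6V1B1 (ENSAMEG00000015864) measured 91.2, 72.0, 94.2, 11.1, and 57.8 FPKM in the same libraries. ATP6V0D2 (ENSAMEG00000002620) measured 40, 20.6, 37.5, 3.04, and 56.2 FPKM. In all 3 subunits replicate 4 was lowest by far. ATP6V0A4 and ATP6V0D2 were also listed for lung, where they averaged 1.66 ± 1.14 and 6.93 ± 5.10 FPKM. A lung library reached 13.7 FPKM for ATP6V0D2, above kidney 4.

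Of the aquaporins, the water channels, kidney and lung each held 2 genes and liver 1. AQP1 (ENSAMEG00000006743), the water channel of the proximal tubule and of blood vessels, was the most abundant of all 54 genes, with 1593, 932, 2089, 273, and 1438 FPKM in kidneys 1 to 5. Lung followed at 221 ± 143 FPKM and heart at 149 ± 45.9, and the highest lung library, at 392 FPKM, exceeded kidney 4. AQP6 (ENSAMEG00000001087), an intracellular channel of intercalated cells, measured 125, 75.6, 102, 6.60, and 62.4 FPKM in the kidneys and at most 0.759 FPKM elsewhere. AQP4, the water channel of the basolateral membrane of epithelia, averaged 20.3 ± 9.09 FPKM in lung, and AQP8 averaged 8.05 ± 3.88. AQP11 (ENSAMEG00000005651), an aquaporin of the endoplasmic reticulum, measured 44.6, 12.3, 32.0, 10.8, and 68.3 FPKM in livers 1 to 5. Kidney averaged 8.70 ± 4.58 FPKM and reached 13.6, above livers 2 and 4.

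The chloride channel and anoctamin genes both peaked in kidney. CLCN5 (ENSAMEG00000012077), the chloride-proton exchanger of endosomes in the proximal tubule, measured 9.71, 7.50, 13.8, 2.84, and 9.02 FPKM in kidneys 1 to 5. ANO9 (ENSAMEG00000010420) was listed for heart, where it was lowest at 0.0530 ± 0.0322 FPKM. In kidneys 1 to 5 it measured 17.7, 7.46, 7.38, 0.982, and 10.5 FPKM. Lung and liver averaged 2.83 ± 1.03 and 2.24 ± 2.56 FPKM, and their highest library, at 6.53 FPKM, exceeded kidney 4 and no other kidney.

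TRP channels pass cations in response to stretch, heat, or receptor signals. TRPV4 (ENSAMEG00000005900), an osmotic and mechanical sensor, measured 32.6, 17.9, 18.2, 2.11, and 14.3 FPKM in kidneys 1 to 5. It was listed for heart as well, where it was lowest at 0.0693 ± 0.0416 FPKM. TRPV5, through which the distal tubule recovers calcium, averaged 2.97 ± 2.38 FPKM in kidney and at most 0.0228 FPKM in the other tissues. TRPC6 (ENSAMEG00000003248), a receptor-operated calcium entry channel, measured 7.23, 13.5, 9.73, 13.0, and 6.36 FPKM in lungs 1 to 5 and reached 4.80 FPKM elsewhere. TRPC4, its relative, averaged 2.15 ± 0.742 FPKM in heart.

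Both P2X receptors are cation channels opened by extracellular ATP. P2RX1 (ENSAMEG00000009399), known from platelets and smooth muscle, measured 8.17, 4.66, 19.1, 5.09, and 5.86 FPKM in spleens 1 to 5. It was listed for lung too, at 1.63 ± 0.672 FPKM, below every spleen. P2RX2 (ENSAMEG00000013572) measured 2.70, 3.06, 2.03, 0.388, and 2.24 FPKM in kidneys 1 to 5 and at most 0.133 FPKM in the other libraries.

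**Figure D2:**
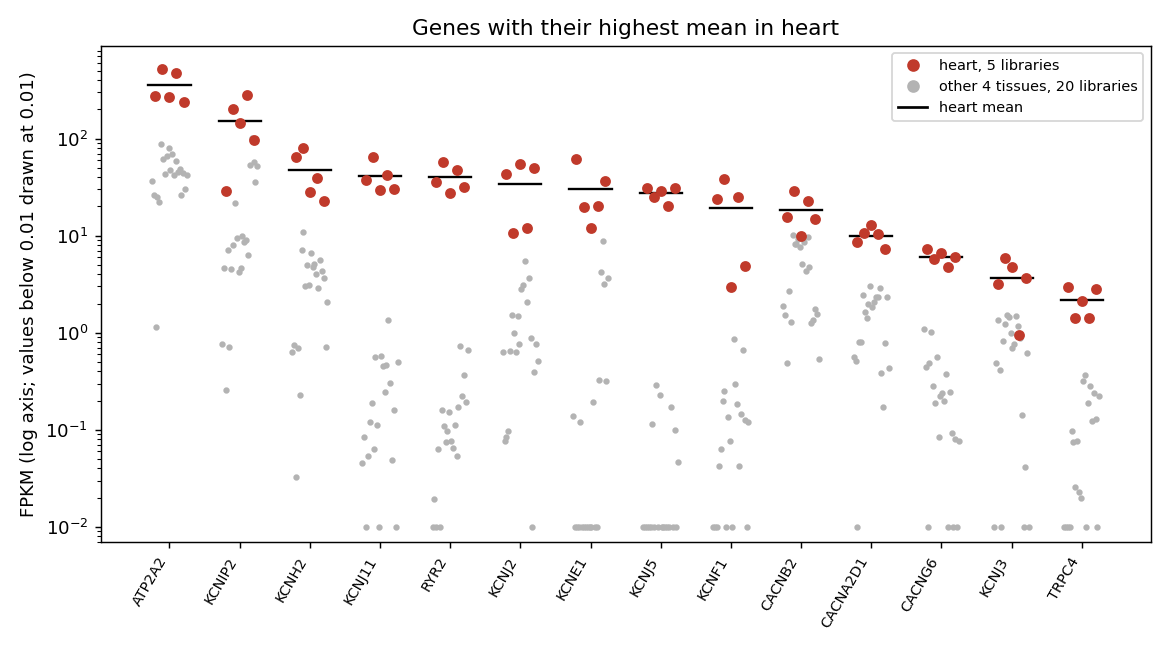
FPKM (log axis, values below 0.01 drawn at 0.01) of 14 of the 16 genes highest in heart, with 5 heart libraries in colour, the heart mean as a black line, and the 20 other libraries in grey. KCNJ5, RYR2, and KCNJ11 show a wide gap to the grey points, while KCNIP2, CACNB2, and KCNJ3 overlap them.

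Listing and level did not always point the same way. The 54 genes held 61 listings, since 7 genes were listed for a pair of tissues: KCNE1, KCNIP2, RYR2, and TRPV4 for heart and kidney, ATP6V0A4 and ATP6V0D2 for lung and kidney, and P2RX1 for spleen and lung. The listed tissue had the highest mean in 50 listings and the lowest in 5, which were KCNK1, CACNA1D, ANO9, and TRPV4 in heart and CACNA1H in liver. In the other 6 it lay between, below the other listed tissue of the same gene. KCNK1, CACNA1D, CACNA1H, and ANO9 were therefore listed only for the tissue where they were lowest. The study asked for a log2 fold change beyond 2 in its own count model, which is not the scale used here. Log2(FPKM + 1) brings low values closer together, and on it the smallest difference of the listed tissue lay nearest to 2 for KCNE1 in kidney against lung (1.94, SE 0.42) and for RYR3 in spleen against kidney (2.04, SE 0.24).

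The kidney library of replicate 4 was the lowest kidney for 18 of the 18 genes that peaked there. Its values ran from 3.03% of the mean of the other kidneys for TRPV5 to 28.4% for CLCN5, with a median of 9.46%. Low values in that library were not particular to these 18 genes. Of the 3754 genes with their highest mean in kidney, the lowest 2 kidneys were 2 and 4 for 1808 and 3 and 4 for 596. They were 4 and 5 for 497 and 1 and 4 for 201. Marker genes of the tubule and of podocytes were low in kidney 4 too, while those of B cells were mixed. The named podocyte genes, 2 of 3, summed to 9.77 FPKM in kidney 4. In kidneys 1, 2, 3, and 5 the sums were 411, 173, 122, and 373 FPKM. The proximal tubule genes were at between 7.06% and 16.8% of the other kidneys (median 11.9%, 6 of 6 genes) and those of the intercalated cell at between 5.46% and 15.0% (median 11.5%, 4 of 4 genes). The B cell genes ran from 40.2% to 480% (median 314%, 6 of 6 genes), though their sum of 8.09 FPKM was the lowest of the kidneys. Over all 15173 genes above 1 FPKM in kidney the median was 62.9%. The part of cell content, of the tubule or otherwise, in these levels was not tested. Without that library KCNJ1 averaged 42.6 ± 23.3 FPKM, KCNK5 146 ± 18.8, ATP6V0A4 89.9 ± 11.5, ATP6V1B1 78.8 ± 17.1, AQP1 1513 ± 476, and AQP6 91.5 ± 28.1 (n = 4).

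**Figure D3:**
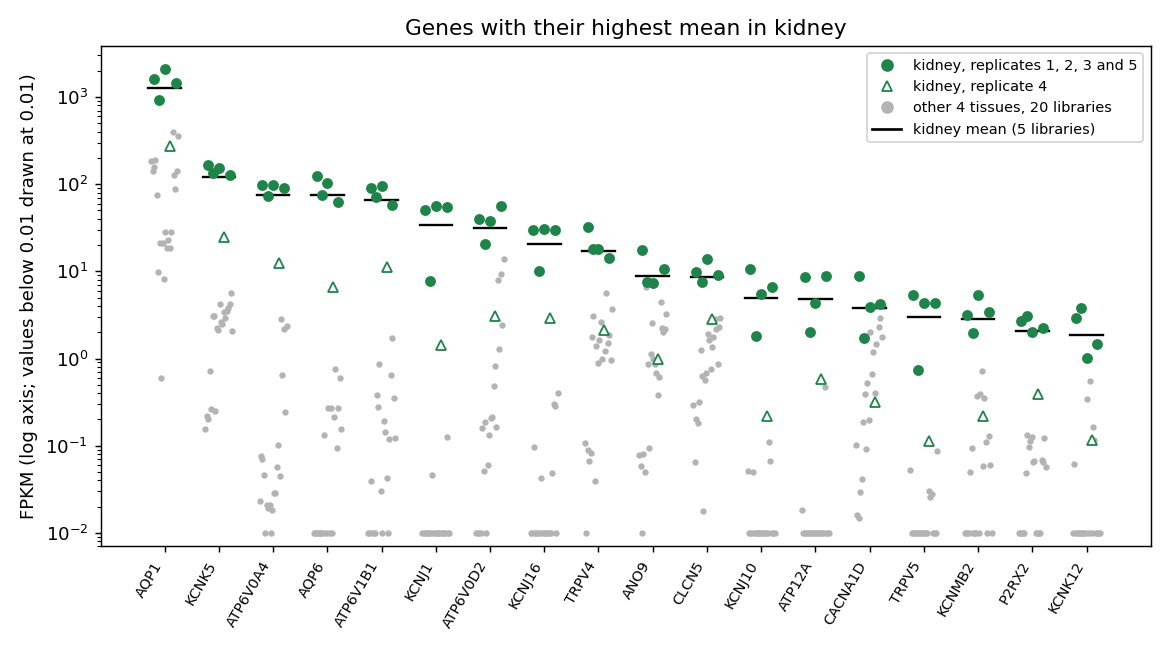
FPKM (log axis, values below 0.01 drawn at 0.01) of the 18 genes highest in kidney, with replicates 1, 2, 3, and 5 as filled circles, replicate 4 as an open triangle, the mean of all 5 as a black line, and the 20 libraries of the other tissues in grey. The triangle is the lowest kidney point for each gene and lies among the grey points for AQP1, ATP6V0D2, TRPV4, ANO9, CACNA1D, and others.

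Other tissues had no such library for all their genes. In heart the highest library was replicate 2 for 7 of 16 genes and replicate 1 for 6, and the lowest was replicate 3 or replicate 4 for 5 genes each. In liver 3 of the 4 genes were lowest in replicate 3, where all genes expressed in liver had a median of 32.5% of the other livers. Pandas 2 and 4 together held both of the highest or both of the lowest heart libraries for 10 of 16 genes, being highest for 6 and lowest for 4. ATP2A2, KCNIP2, RYR2, CACNB2, and KCNJ11 were among the former and KCNJ2 and KCNJ5 among the latter. In spleen it was 8 of 10 genes, highest for 2 and lowest for 6. Over all expressed genes that peaked in the same tissue, the share was 49.0% of 1561 in heart and 47.1% of 6442 in spleen.

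**Figure D4:**
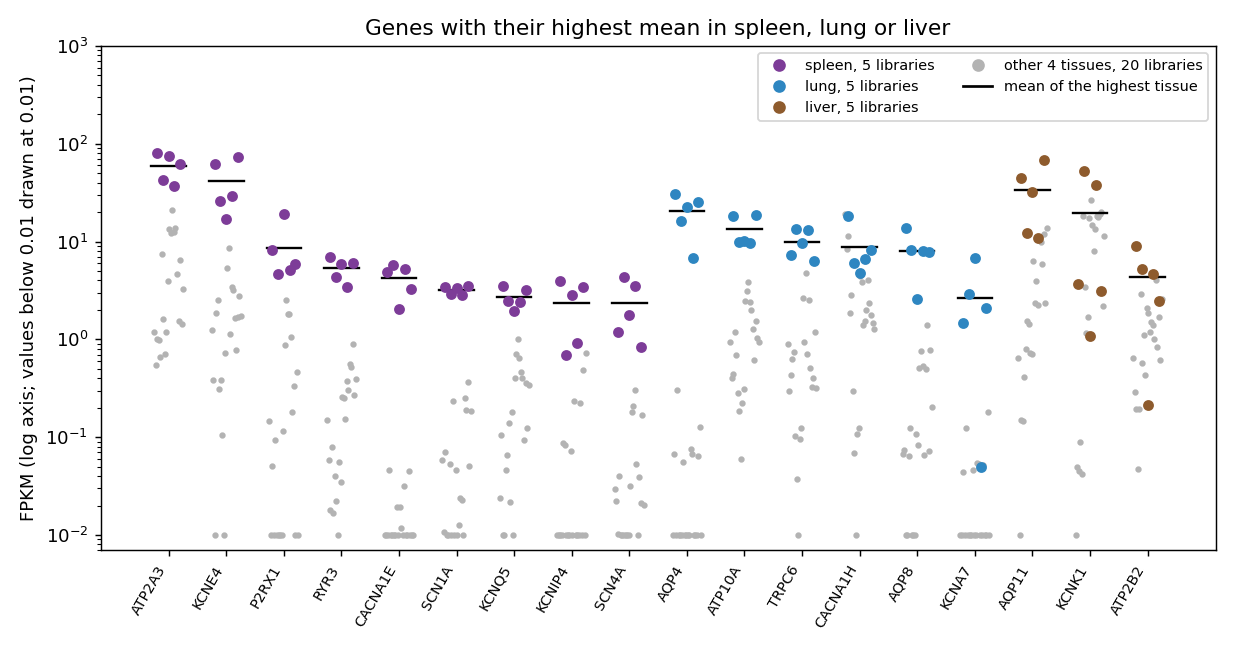
FPKM (log axis, values below 0.01 drawn at 0.01) of 9 of the 10 genes highest in spleen, the 6 in lung, and 3 of the 4 in liver, with the 5 libraries of that tissue in colour, their mean as a black line, and the 20 other libraries in grey. SCN1A is the most even of the spleen genes, while KCNK1 in liver falls into a pair of high and a trio of low libraries.

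To see how these genes behave between tissues that did not choose them, each gene was tested in the pairs of tissues for neither of which it was listed. Of 303 such comparisons 118 could be tested, for 22 genes, since both means were at or under 1 FPKM in the rest. Called as different were 12 of them, or 10.2%, in 6 genes, at a Benjamini-Hochberg adjusted p below 0.05 in limma and a log2 difference beyond 2. Over all genes, with each pair weighted by the number of these genes tested in it, 18.4% were called. No comparison was left out of the latter share for involving the listed tissue of a gene, so the 2 shares do not count the same kind of comparison. The study drew its lists from comparisons of every 2 tissues, so being unlisted for both tissues of a pair also used that pair. The choice therefore touched these comparisons too, and their shares and p-values are no independent evidence. Both shares also moved with the scale. With limma-voom on the recovered reads 54 of the 118 were called (45.8%, all genes 33.7%), with a pseudocount of 0.1 in place of 1 it was 44 (37.3%, all genes 32.7%), and without pandas 2 and 4 it was 21 of 115 (18.3%, all genes 21.0%). All 12 calls were among those made in each of these 3 ways.

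The calls by pair were few. Between heart and liver 1 of 4 genes was called, with 15.7% of all genes. Between heart and spleen it was 1 of 9, with 23.3%, and between heart and lung 2 of 9, with 22.9%. Between heart and kidney 1 of 7 was called, with 15.3%. Liver and spleen gave 1 of 16, with 29.9%, and liver and lung 2 of 16, with 29.0%. For liver and kidney there were 0 of 9, with 14.0%. Spleen and lung gave 1 of 18, with 6.88%, the lowest share of all genes called among the 10 pairs in these fits. The pair of spleen and kidney gave 3 of 15, with 14.3%, and that of lung and kidney 0 of 15, with 12.2%.

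**Figure D5:**
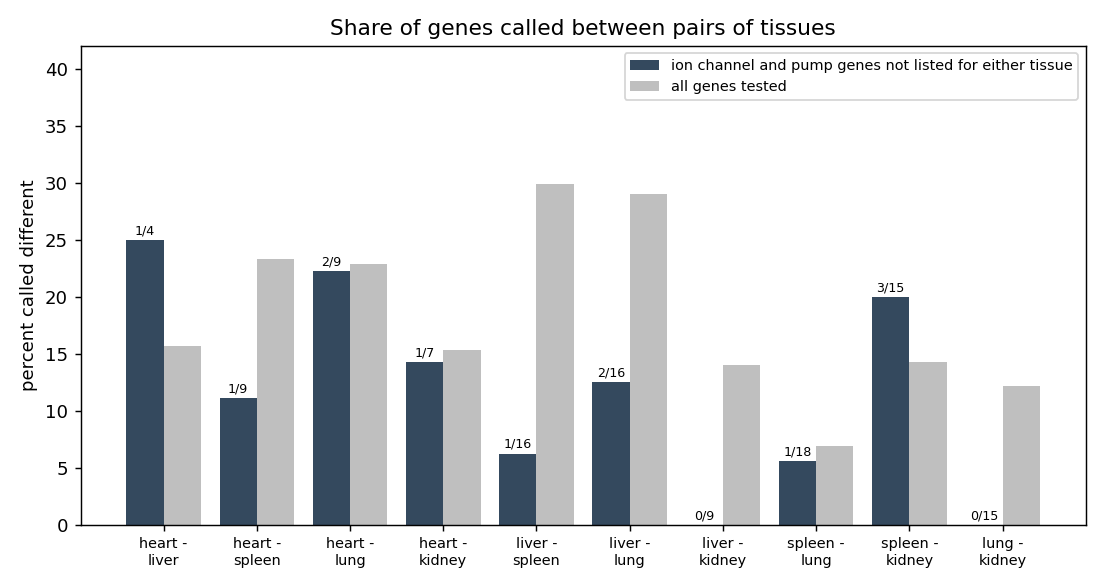
Percent of genes called different in limma for each of 10 pairs of tissues, for ion channel and pump genes not listed for either tissue (dark bars, with called/tested above) and for all genes tested (grey bars). The dark bar rests on at most 18 genes in each pair, and it is above the grey bar for heart and liver and for spleen and kidney.

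AQP1 made 4 of the 12 calls. Outside the kidney it measured 184, 140, 156, 189, and 74.9 FPKM in hearts 1 to 5. In lungs 1 to 5 it measured 392, 126, 87.5, 141, and 360 FPKM. Spleens ran from 18.3 to 28 FPKM and livers from 0.593 to 21.2, so that hearts and lungs lay above all spleens and all livers. On the log2(FPKM + 1) scale lung was higher than liver (liver minus lung -4.30, SE 0.69, limma adjusted p = 0.000167) and higher than spleen (spleen minus lung -2.97, SE 0.39, limma adjusted p = 0.000107). Heart exceeded liver by 3.91 (SE 0.63, limma adjusted p = 0.000311) and spleen by 2.59 (SE 0.26, limma adjusted p = 2.22e-06).

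AQP11, listed for liver alone, made 3 calls. It measured 9.82, 5.87, 11.9, 2.34, and 13.6 FPKM in kidneys 1 to 5 and 6.35, 2.33, 3.92, 2.27, and 10.7 FPKM in lungs 1 to 5. Hearts ran from 0 to 0.647 FPKM and spleens from 0.705 to 1.55, below every kidney. In liver, lung, and kidney alike, pandas 2 and 4 had the lowest values. Kidney exceeded heart (heart minus kidney -2.78, SE 0.38, limma adjusted p = 5.55e-05) and spleen (spleen minus kidney -2.09, SE 0.38, limma adjusted p = 0.000658), and lung exceeded heart (heart minus lung -2.11, SE 0.33, limma adjusted p = 9.26e-05).

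ATP2A3, listed for spleen, measured 13.3, 12.2, 21.1, 12.6, and 13.9 FPKM in lungs 1 to 5. Its hearts ran from 0.549 to 1.18 FPKM and its livers from 0.703 to 7.52, so that neither overlapped the lungs. The differences were -3.04 (SE 0.21, limma adjusted p = 1.10e-07) for heart minus lung and -2.20 (SE 0.42, limma adjusted p = 0.000545) for liver minus lung. After quantile normalization they were -1.77 and -0.62 and neither was called, and with size factors the call between liver and lung was lost as well (-0.85). B cell genes were also more abundant in lung, with sums between 22.4 and 93.7 FPKM there and at most 6.95 FPKM in heart and liver, and their part in the level of ATP2A3 was not tested.

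The other calls were single ones. ANO9 was higher in kidney than in spleen (spleen minus kidney -2.22, SE 0.48, limma adjusted p = 0.00199). Its libraries overlapped, with 0.982 FPKM in kidney 4 and 1 FPKM in spleen 1. KCNH2 measured 7.08, 10.9, 3.05, 4.99, and 3.12 FPKM in spleens 1 to 5 and at most 0.740 FPKM in liver (liver minus spleen -2.12, SE 0.32, limma adjusted p = 9.41e-05). CACNB2 measured between 7.60 and 10.1 FPKM in spleen and between 0.539 and 1.75 in kidney (spleen minus kidney 2.09, SE 0.24, limma adjusted p = 1.93e-05).

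Which calls passed depended on how libraries were scaled. The median log2 difference of all genes ran from -1.29 between liver and spleen to 0.43 between lung and kidney, and only from -0.13 to 0.11 after quantile normalization. Of the 12 calls 3 were higher in the first-named tissue and 9 in the second. After quantile normalization the calls were 4 and 5, and with median-of-ratios size factors 4 and 6. Under quantile normalization 5 of the 12 calls were lost with their direction kept, those of CACNB2 and KCNH2, both of ATP2A3, and that of AQP11 between heart and lung. With size factors 4 were lost, those of CACNB2 and KCNH2, that of ATP2A3 between liver and lung, and that of AQP11 between heart and lung.

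Age of the pandas was the other comparison, which the choice of the genes did not use. The 3 young pandas were set against the 2 older ones within each tissue, and age cannot be told apart from the cause or the year of death, which go with it. With limma 0 of the 54 genes passed an adjusted p of 0.05 in any tissue, as did 0 of all genes tested, and with limma-voom on the recovered reads the count was 0 too. The smallest adjusted p of the 54 was 0.32, for CACNA1H in spleen. At an unadjusted p below 0.05 there were 4 of 19 genes in heart (4.41% of all genes), 0 of 12 in liver (0.704%), 2 of 29 in spleen (10.6%), 1 of 28 in lung (1.14%), and 1 of 31 in kidney (3.01%). None of these passed the adjustment.

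Of the heart genes with an unadjusted p below 0.05, KCNH2 and KCNF1 are described here, and both were lower in the young. KCNH2 averaged 29.9 FPKM in the young and 72.3 in the older hearts (young minus older -1.27, SE 0.34), and no young heart reached an older one. For KCNF1 the averages were 11 and 31.3 FPKM (-1.89, SE 0.76), with heart 4 among the older values. KCNH2 was also lower in young spleens, at 3.72 against 9.00 FPKM (-1.08, SE 0.32), as was CACNA1H, at 1.64 against 4.14 FPKM (-0.97, SE 0.27). In lung the gene was KCNE4 (2.60 against 7 FPKM), and in kidney it was KCNK12 (0.859 against 3.36 FPKM). With all 5 kidneys KCNJ1 differed by -0.11 (SE 1.39). Without kidney replicate 4 it was the 1 gene of the 54 that passed (1.40, SE 0.41, limma adjusted p = 0.0462), and 231 of all 15235 genes tested passed. The young kidneys then had 56.2 and 55.1 FPKM and the older ones 51.1 and 7.79, so that the difference rested on kidney 2. Limma draws the variance of a gene towards that of all genes. The SE of 0.41 and its p therefore do not measure the spread of KCNJ1 among these kidneys. Without pandas 2 and 4 the older group was panda 1 alone, so no count of genes is drawn from that fit.

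The partners of these channels in the same pathways were described from lists of known genes, and only those that the study had listed carry a name. That they are themselves tissue-specific DEGs makes their direction no independent evidence. Of 18 genes of the cardiac calcium cycle 11 were named, and all 11 were highest in heart. Phospholamban (PLN), the brake of ATP2A2, measured 2399, 2277, 4536, 2722, and 4010 FPKM in hearts 1 to 5, and calsequestrin (CASQ2), which binds calcium in the store beside RYR2, averaged 245 ± 45.9 FPKM. Triadin (TRDN), which joins calsequestrin to the release channel, averaged 47.3 ± 13.5 FPKM, near the 40 ± 12.1 FPKM of RYR2. Of 26 genes of ion transport along the kidney tubule 20 were named, and all 20 were highest in kidney. In kidney 4 these ran at a median of 7.38% of the other kidneys.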

How the data were processed

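The authors filtered the reads of 25 libraries, mapped them to ailMel1 with HISAT2 (v2.0.4), assembled further genes with Cufflinks (v2.1.1), counted reads per gene with HTSeq (v0.9.1, union mode, default parameters), and deposited FPKM values computed from these counts and the gene lengths. No scaling between libraries is stated. The NEBNext Ultra kit does not mark strand, so reads of a gene and of a gene that overlaps it on the other strand cannot be told apart. Whole reads were recovered from the steps of the values for 24199 of 24207 genes above 0 (tolerance 0.05 reads).

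Gene names came from the study's list of tissue-specific DEGs. Of the marker lists, cardiomyocyte, B cell, proximal tubule, and intercalated cell had at least 80% of their genes named and were used. The hepatocyte and lung epithelium lists served only to describe the libraries of liver and lung, and the podocyte list only those of kidney. Genes, lists, and tests were chosen with earlier results of these data known. Library values were given for the 2 genes of each family with the highest tissue mean, those listed for 2 tissues, those whose highest tissue was not listed, and those called between tissues that did not choose them (the 5 largest differences in each direction).

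Both kinds of comparison used limma (version 3.58.1, R 4.3.3, trend in the variance) on log2(FPKM + 1), for genes above a mean of 1 FPKM in either tissue (for age, in the tissue), with Benjamini-Hochberg adjustment over all genes tested. Libraries of a panda come from 1 animal. With tissue means removed they correlated across genes at a median of 0.367 (49 of 50 pairs above 0.1), and those of different pandas at a median of -0.122. Alternatives were quantile normalization, size factors, a pseudocount of 0.1, no filter, limma-voom on recovered reads, the panda as a replicate block, all libraries in one fit, other expression thresholds, and each library left out. The omission of pandas 2 and 4 and the test of age between tissues were added after the data were seen. The values of 4 of the 54 genes are not reported by name here. Sequences and gene positions were not used here.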

Additional observations from a re-analysis of the deposited data

Results flagged for a closer look

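Of 119 groups of 5 libraries with a mean above 1 FPKM, 5 (4.2%) held a library whose gap to its nearest neighbour exceeded Dixon's critical value of 0.71 of the range, and chance flags about 1 in 20 groups. KCNK5 measured 24.6 FPKM in kidney 4 where the nearest kidney had 127, and ATP6V0A4 measured 12.6 FPKM in the same library where the nearest had 73.3. On the high side, CACNA1H measured 18.3 FPKM in lung 1 with 8.27 FPKM in the nearest lung, ATP2A3 measured 21.1 FPKM in lung 3 with 13.9 FPKM in the nearest, and P2RX1 measured 19.1 FPKM in spleen 3 with 8.17 FPKM in the nearest. Summed B cell genes were highest in the same lung 3 (93.7 FPKM) and spleen 3 (793 FPKM), and their part in the levels of ATP2A3 and P2RX1 was not tested. The difference between young and older pandas was tested for a change from tissue to tissue, and 0 of the 54 genes passed in limma (smallest adjusted p = 1), with 1 gene at an unadjusted p below 0.05.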

How the results depend on the processing

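The 12 calls between tissues that did not choose the genes became 44 with a pseudocount of 0.1, 54 with limma-voom on the recovered reads, and 21 without pandas 2 and 4. With quantile normalization there were 9 calls (7 shared) and with size factors 10 (8 shared). No filter, all libraries in one fit, and the panda as a replicate block each gave 12 calls, the same ones, so that the pairing changed no call. With each library left out in turn the count ran from 10 to 16. Over these alternatives the 12 calls kept their direction. Between young and older pandas the count of 0 stayed at 0 in the alternatives that kept both older pandas, apart from 1 without kidney replicate 4. The number of genes highest in, or expressed in, each tissue stayed within 1.5 times under the other scaling, the median, the other thresholds, and each library left out. Depth limits the low genes: 3 fragments on 1 kb were worth up to 0.228 FPKM, and on the log2(FPKM + 1) scale differences of genes near 1 FPKM are understated. Unnamed channel genes were not analysed here.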

Other observations

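Kidneys 2 and 4 were the lowest 2 kidneys for 11 of the 18 genes that peaked in kidney, where 1808 of 3754 genes with their highest mean in kidney had that order. In liver the pair was split by gene: replicates 2 and 4 had the highest values of KCNK1 and the lowest of AQP11. In lung, replicates 2 and 4 had the highest values of TRPC6 and the lowest of AQP4 and ATP10A. In the spleen they had the highest values of SCN4A and CACNA1E, while 6 of the 10 spleen genes, ATP2A3 and RYR3 among them, were lowest there. Panda 2 was 9 years old and panda 4 was 0.5 years old, and what lies behind their shared order was not tested.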
